A study of Mus musculus with 2 samples.

Results

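The immediate early and heat shock genes described here are 33 genes found by symbol among the 56980 genes of the files, 27 immediate early members and 6 heat shock members. The immediate early members fall into 6 AP-1 and ATF genes (Fos, Fosb, Jun, Junb, Jund, Atf3), 13 other transcription regulators (Egr1, Egr2, Egr3, Nr4a1, Nr4a2, Nr4a3, Klf4, Klf6, Myc, Crem, Ier2, Ier5, Nfkbiz) and 8 feedback and signalling genes (Dusp1, Dusp2, Btg2, Zfp36, Ier3, Gadd45b, Socs3, Rgs1). The heat shock members are Hspa1a, Hspa1b, Hsph1, Dnajb1, Hsp90aa1 and Hspa8. All 33 had UMIs (unique molecular identifiers, each marking 1 captured RNA molecule) in both libraries. The set was listed by name and not by measured values, although earlier results of these data were known when it was chosen.

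Immediate early genes are transcribed within minutes of a stimulus without new protein synthesis, because the factors that switch them on are already present in the cell and are activated by phosphorylation. Many encode transcription factors, among them the Fos and Jun proteins that pair to form AP-1, and others encode phosphatases and RNA-binding proteins that shut the signal off again. Heat shock genes encode chaperones and are switched on by heat shock factor when unfolded proteins accumulate. In tissue dissociated with enzymes both groups are known to be induced during handling as well as by signals in the animal, and transcripts alone do not separate these sources.

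The cells came from mouse small intestine, in 1 library labelled control and 1 labelled model, measured by droplet RNA sequencing. Tissue of both libraries was rinsed, stripped of mesentery and Peyer's patches and digested with EDTA, then with collagenase A and DNase I. The series title names simulated microgravity, radiation and a compound called CB001, but the labels do not say what the model animal received, how many animals a library holds, their strain, age or sex, or which stretch of gut was taken. Libraries given CB001 are not analysed here. With 1 library per group no test between groups exists, and every interval below is a 95% interval that covers counting error only.

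The control library gave 7329 kept cells and the model library 7913, with a median of 3636 and 3761 UMIs and of 10.8% and 5.38% mitochondrial UMIs. The libraries share 28 barcodes, 12 of them among kept cells. Clustering without the 33 members gave 30 clusters, of which 24 were named from cell type markers as 17 classes, written "-like" because they rest on transcripts alone, and 6 stayed unnamed. Free RNA was present: the plasma cell gene Igha had UMIs in most cells of every other main class, and the Paneth cell gene Defa24 in 54.5% of control and 7.53% of model T cell-like cells.

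The promoters of members whose ratios are described below are shown first, since 4 regulatory motifs were looked for in them. Sequences are from RefSeq on build GRCm38.p6, a different build from the one used for counting, and 24 of the 33 members were matched. Each motif was searched on both strands from 250 bases before to 50 bases after the transcription start, and each share of all promoters refers to 32851 windows of that length. The heat shock element, spelled GAANNTTC, was in the windows of Hspa1a, Hspa1b and Hsph1, 3 of 4 heat shock members searched, and of Jun, 1 of 20 immediate early members searched. It was in 7.86% of all promoters. The cAMP response element, TGACGTCA, was in Btg2 and Dusp1 (2 of 20) and in 1.79% of all promoters. The CArG box was in Zfp36 (1 of 20) and in 1.63% of all promoters, and the AP-1 element TGANTCA was in 0 of 20 immediate early members and in 7.81% of all promoters. None of the 24 windows held more than 1 of the 4 motifs, so no matches overlapped.

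The 250 bases before the start of 5 members are printed 5′ to 3′ on the gene's strand, with the match in capitals. Hspa1a (chr17:34972157-34972406, minus strand) and Hspa1b (chr17:34959239-34959488, minus strand) are shown because their windows differ at 3 of 250 bases, and both carry the heat shock element starting 104 bases before the start. Their transcripts are near-identical too, so how reads were split between them is uncertain. Jun (chr4:95052223-95052472, minus strand) carries the same motif 128 bases before the start. Btg2 (chr1:134079156-134079405, minus strand) and Dusp1 (chr17:26508473-26508722, minus strand) carry the cAMP response element 166 and 143 bases before it. In Hsph1 the match starts 42 bases after the start and is not printed.
Hspa1a: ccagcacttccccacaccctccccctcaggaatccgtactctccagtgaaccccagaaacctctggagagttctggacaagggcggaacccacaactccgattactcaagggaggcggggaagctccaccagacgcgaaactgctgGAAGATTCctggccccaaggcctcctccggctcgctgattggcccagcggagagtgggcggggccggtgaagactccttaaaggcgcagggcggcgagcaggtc
Hspa1b: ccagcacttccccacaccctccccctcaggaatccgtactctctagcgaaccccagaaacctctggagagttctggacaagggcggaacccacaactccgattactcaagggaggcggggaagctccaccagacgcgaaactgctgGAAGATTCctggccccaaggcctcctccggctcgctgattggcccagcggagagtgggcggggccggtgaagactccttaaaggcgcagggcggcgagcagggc
Jun: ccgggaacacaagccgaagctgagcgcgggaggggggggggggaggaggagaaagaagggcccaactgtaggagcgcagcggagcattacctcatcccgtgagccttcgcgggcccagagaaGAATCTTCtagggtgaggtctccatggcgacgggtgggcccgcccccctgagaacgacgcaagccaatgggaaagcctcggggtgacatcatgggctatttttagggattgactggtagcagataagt
Btg2: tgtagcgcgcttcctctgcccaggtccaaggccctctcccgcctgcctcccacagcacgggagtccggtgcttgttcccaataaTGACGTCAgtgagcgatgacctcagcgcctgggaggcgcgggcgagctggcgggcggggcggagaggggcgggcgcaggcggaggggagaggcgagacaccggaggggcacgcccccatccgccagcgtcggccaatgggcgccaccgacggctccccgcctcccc
Dusp1: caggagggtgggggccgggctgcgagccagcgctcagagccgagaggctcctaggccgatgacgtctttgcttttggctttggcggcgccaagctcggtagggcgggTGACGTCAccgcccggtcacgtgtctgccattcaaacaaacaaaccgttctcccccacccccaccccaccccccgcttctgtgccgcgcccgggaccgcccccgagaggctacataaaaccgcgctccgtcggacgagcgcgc

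Levels of the members differed far more between cell classes than between libraries. Summed over the 27 immediate early members, and among classes with at least 50 cells, the share of all UMIs ran from 0.578% in control tuft-like cells to 3.96% in control NK or innate lymphoid-like cells, and it was 3.95% in the latter in the model library. Smooth muscle or pericyte-like cells (3.50% in control, 3.64% in model), macrophage or monocyte-like cells (3.46% and 2.73%), fibroblast-like cells (2.94% and 1.96%) and endothelial-like cells (2.72% and 2.66%) followed. Epithelial classes and plasma cell-like cells were lower, at 0.848% and 0.788% in enterocyte-like cells, 0.990% and 1.05% in crypt stem or transit-amplifying-like cells, 1.40% and 1.58% in goblet-like cells and 0.669% and 0.675% in plasma cell-like cells. T cell-like cells were at 1.44% and 1.52%, close to goblet-like cells. Nearly every cell had a UMI of at least 1 immediate early member: in T cell-like cells 0 of 1118 control and 1 of 2245 model cells had none.

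**Figure D1:**
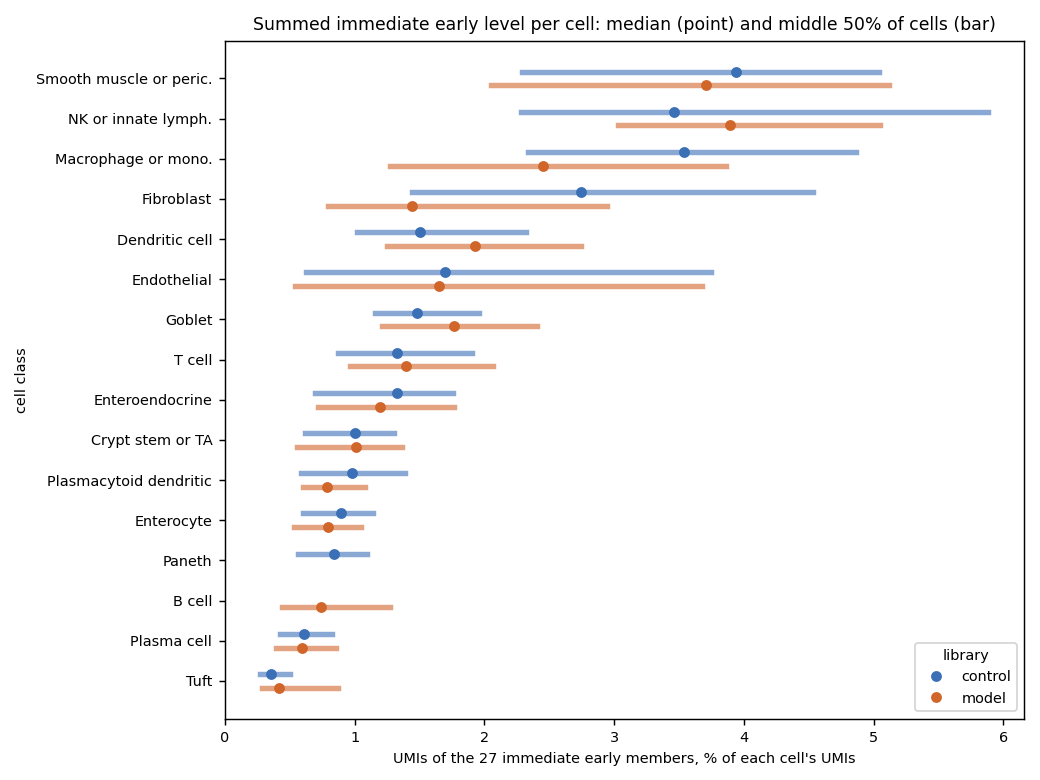
UMIs of the 27 immediate early members as a percentage of each cell's UMIs, by cell class (rows) and library (blue control, orange model); points are medians over cells and bars span the middle 50% of cells, drawn for classes with at least 50 cells over both libraries and at least 20 in the library. Macrophage or monocyte-like cells have a median of 3.54% in control and 2.45% in model, and endothelial-like cells span 0.623% to 3.74% in control.

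Cells of 1 class differed widely among themselves. The middle 50% of control endothelial-like cells ran from 0.623% to 3.74%, and of model ones from 0.537% to 3.68%, so the spread was alike in both libraries. In enterocyte-like cells the same range was 0.599% to 1.14% in control and 0.532% to 1.05% in model. Tuft-like cells had the lowest medians, 0.358% and 0.418%. These cells share a library, and their spread includes counting error at differing depth.

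Among the AP-1 and ATF members, Fos, an inducible partner in AP-1, was highest in smooth muscle or pericyte-like cells, at 4743 CPM (counts per mega-UMI of the class) in control and 5185 CPM in model, and lowest in tuft-like cells at 627 CPM pooled. Junb, a Jun protein prominent in lymphoid and myeloid cells, reached 9041 CPM in control and 8533 CPM in model NK or innate lymphoid-like cells and 286 CPM in pooled plasma cell-like cells. Jun, the founding AP-1 subunit, was also highest in NK or innate lymphoid-like cells (3580 and 3446 CPM) and lowest in B cell-like cells (310 CPM pooled). These 3 genes kept the same highest class in both libraries. Fosb was highest in fibroblast-like cells, at 1802 CPM pooled, with NK or innate lymphoid-like cells at 1785 CPM, and their counting intervals overlapped. Jund, the steadily expressed Jun protein, spanned the narrowest range of the 6, from 2740 CPM in NK or innate lymphoid-like cells to 792 CPM in enterocyte-like cells. Atf3, a stress-induced repressor, was highest in smooth muscle or pericyte-like cells (1208 and 1285 CPM) and 47.4-fold lower in T cell-like cells (26.3 CPM pooled).

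The other transcription regulators divided between stromal, myeloid and lymphoid classes. Egr1, a zinc finger factor downstream of ERK signalling, was at 3798 CPM in smooth muscle or pericyte-like and 3727 CPM in fibroblast-like cells, pooled, which did not differ beyond counting error, and at 88.5 CPM in plasma cell-like cells. Its relatives Egr2 and Egr3 were highest in B cell-like cells, at 66.2 and 231 CPM pooled, where nearly all cells came from the model library. Nr4a1, an orphan nuclear receptor induced by antigen receptor signals, was highest in NK or innate lymphoid-like cells (3213 CPM in control, 2174 CPM in model) and at 7.43 CPM in pooled enterocyte-like cells. Nr4a2 was highest in T cell-like cells, at 1403 and 1590 CPM, and Nr4a3 in dendritic cell-like cells in control (658 CPM) but NK or innate lymphoid-like cells in model (534 CPM). Klf4, a factor of differentiated epithelium and of vessel wall cells, was at 997 CPM in fibroblast-like and 973 CPM in endothelial-like cells, pooled, with overlapping intervals, and at 31.6 CPM in T cell-like cells. Klf6 (1736 and 1243 CPM) and Ier5 (728 CPM in control; 623 CPM pooled) were highest in macrophage or monocyte-like cells, although in the model library plasmacytoid dendritic cell-like cells had more Ier5 (587 CPM). Myc, the growth factor-induced regulator, was at 351 CPM in pooled B cell-like cells and 94.4 CPM in T cell-like cells. Crem, a cAMP-responsive factor, Ier2, and Nfkbiz, an atypical inhibitor of NF-kB, were highest in NK or innate lymphoid-like cells, at 318, 858 and 844 CPM pooled. For Ier2 the interval overlapped that of endothelial-like cells (748 CPM pooled), which were highest in the model library at 978 CPM.

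**Figure D2:**
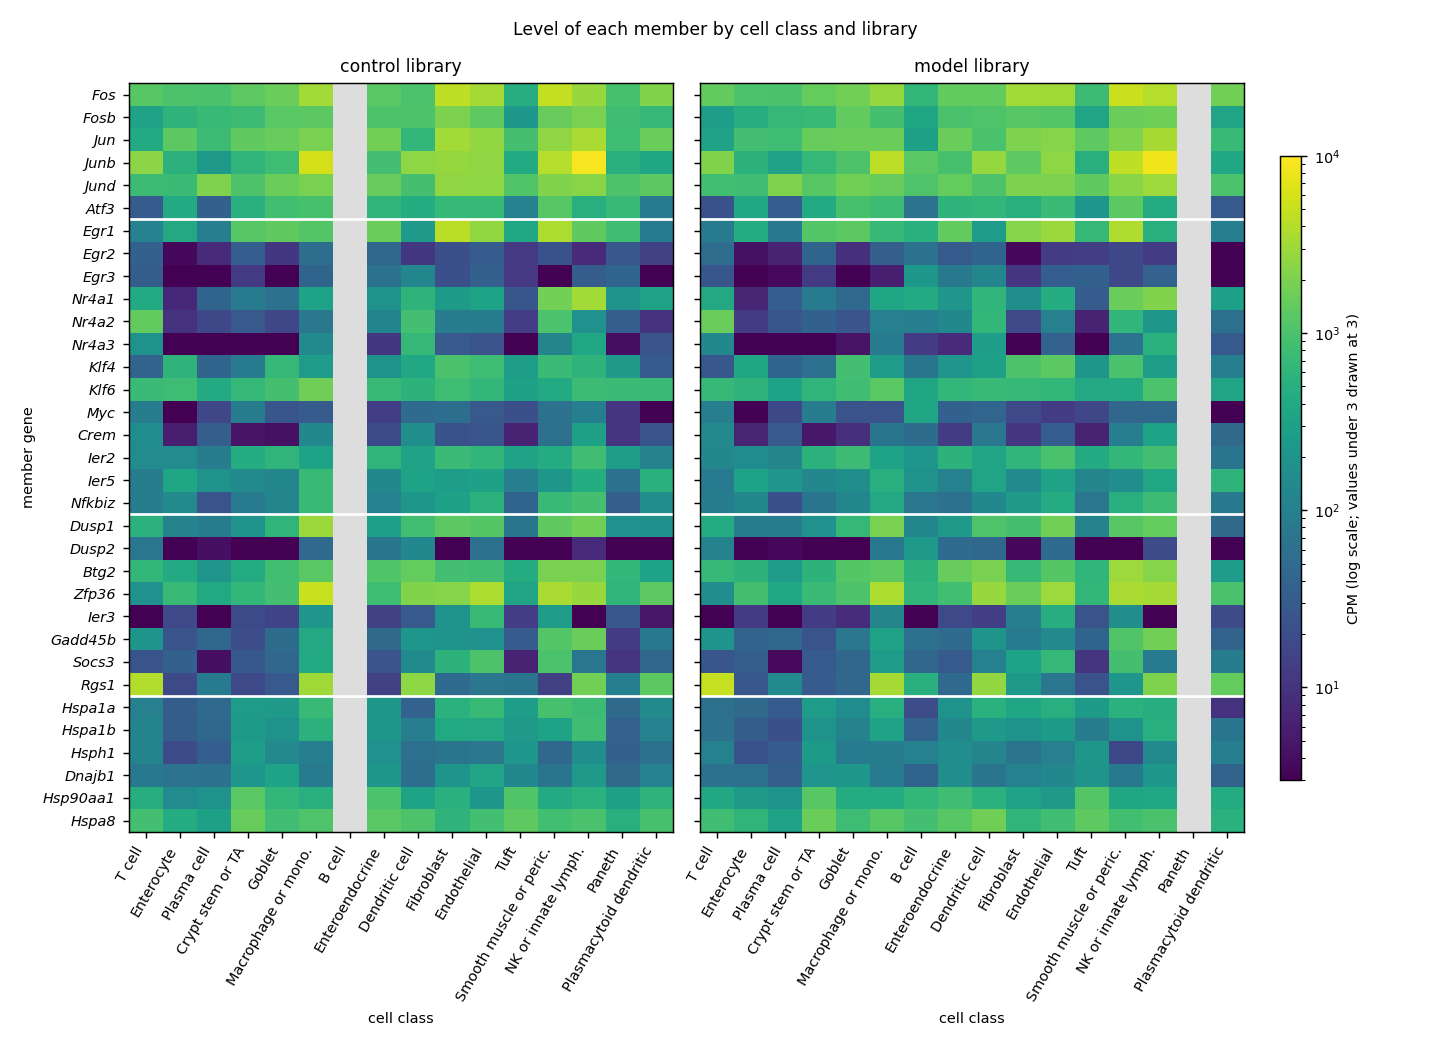
Level of each of the 33 members (rows, in the 4 role groups divided by white lines) in each of 16 named cell classes (columns) in the control (left) and model (right) library, in CPM on a log colour scale; grey marks classes with under 20 cells in that library. The 2 panels look alike: Rgs1 is bright in T cell-like cells (3940 and 4953 CPM) and Dusp1 in macrophage or monocyte-like cells (2925 and 1938 CPM) in both libraries.

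The feedback members followed the same division. Dusp1, a phosphatase that inactivates MAP kinases, and Zfp36, a protein that speeds the decay of cytokine mRNAs, were highest in macrophage or monocyte-like cells in both libraries, at 2925 and 1938 CPM and at 5120 and 3717 CPM. Zfp36 was lowest in T cell-like cells (170 CPM pooled) and Dusp1 in tuft-like cells (92.1 CPM pooled). Rgs1, a brake on G protein-coupled receptor signals in leukocytes, was at 3940 CPM in control and 4953 CPM in model T cell-like cells and at 22.8 CPM in pooled enterocyte-like cells. Btg2, an antiproliferative gene, and Socs3, an inhibitor of cytokine receptor signals, were highest in smooth muscle or pericyte-like cells, at 2492 and 968 CPM pooled. In the control library the highest class was NK or innate lymphoid-like for Btg2 (1986 CPM) and endothelial-like for Socs3 (1043 CPM), and the pooled Socs3 intervals of the top classes overlapped. Ier3 was highest in endothelial-like cells (614 CPM pooled) and Gadd45b, a stress-response gene, in NK or innate lymphoid-like cells (1710 CPM pooled). Dusp2, a phosphatase of activated lymphocytes, was highest in B cell-like (243 CPM) and T cell-like cells (98.3 CPM), pooled, and had 0 UMIs in smooth muscle or pericyte-like cells.

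The heat shock members had another order. Their summed level was highest among named classes in crypt stem or transit-amplifying-like cells, at 3771 CPM in control and 3750 CPM in model, and lowest in plasma cell-like cells, at 686 and 628 CPM. The unnamed cluster 14, led by the cell cycle genes Ube2c, Birc5 and Top2a, stood higher still at 3872 and 4575 CPM. Tuft-like cells, lowest in immediate early members in the control library, were at 3310 and 3240 CPM. Hsp90aa1, the inducible cytosolic Hsp90, was at 1240 and 1213 CPM in crypt stem or transit-amplifying-like cells, and Hspa8, the constitutive Hsc70 chaperone, at 1528 and 1636 CPM there. Hsph1, an Hsp110 family exchange factor, was highest there as well (273 and 247 CPM). The strongly inducible Hsp70 genes went elsewhere: Hspa1a was highest in smooth muscle or pericyte-like cells (945 CPM in control, 537 CPM in model) and Hspa1b in NK or innate lymphoid-like cells (826 and 502 CPM). Dnajb1, the Hsp40 partner of Hsp70, was at 284 CPM in pooled goblet-like and 267 CPM in endothelial-like cells, with overlapping intervals.

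**Figure D3:**
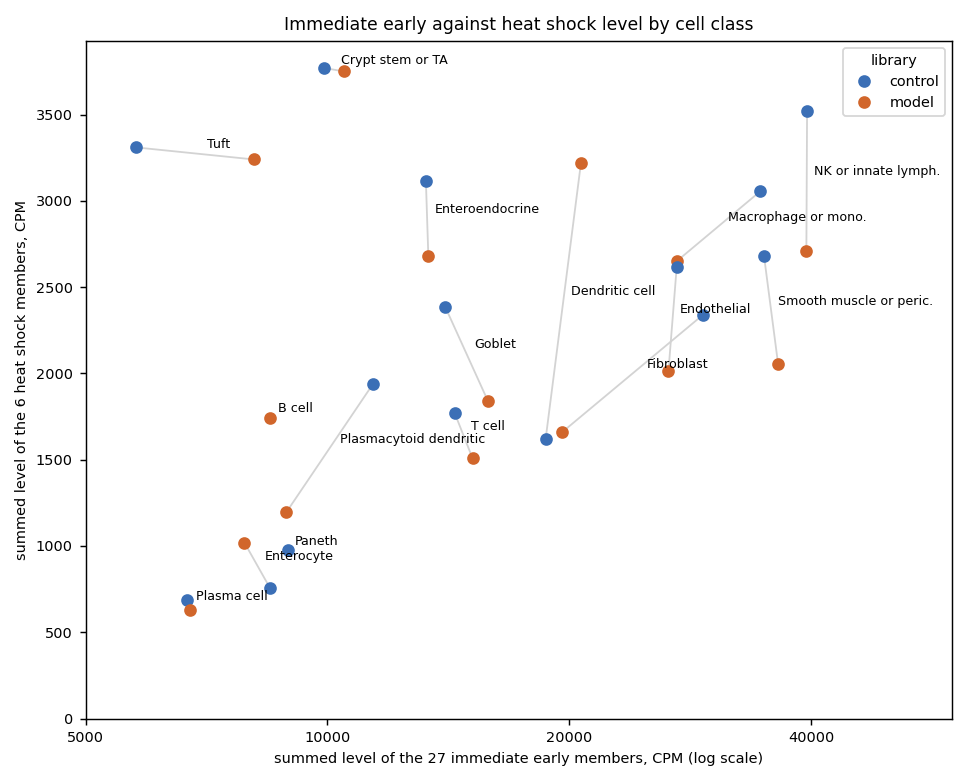
Summed level of the 6 heat shock members (vertical, CPM) against that of the 27 immediate early members (horizontal, CPM, log scale) for each named class, with a grey line joining the control (blue) and model (orange) point of a class. Crypt stem or transit-amplifying-like and tuft-like cells sit high on the heat shock axis at low immediate early level, and dendritic cell-like cells have the longest vertical line, from 1621 CPM in control to 3220 CPM in model.

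Across 55 profiles (each a cluster in 1 library with at least 30 cells), the mean standardised level of the immediate early members had a Pearson correlation of 0.362 with that of the heat shock members. The profiles share libraries and their depth differs, so the value is a description. Dusp1 (0.901), Junb (0.879) and Btg2 (0.838) followed the mean of the other immediate early members most closely and Rgs1 (0.241) least. Outside the members, Csrnp1 (0.876), a nuclear protein induced by AXIN1, and Ppp1r15a (0.842), which reverses the stress-induced block of translation, were most like the immediate early mean. Cysltr1 (0.820), Trps1 (0.814), Rsu1 (0.796), Ndel1 (0.796), Nfkb1 (0.776) and Myof (0.773) came next. Most like the heat shock mean were Hsp90ab1 (0.885), the constitutive partner of Hsp90aa1, Mat2a (0.865), Luc7l (0.862), Hdgf (0.860), Naa15 (0.854), Smyd2 (0.846), Mrpl3 (0.840) and Cct6a (0.840), a subunit of the chaperonin TRiC.

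Of the immediate early members, only Jun, Junb, Egr1, Fosb, Ier2, Dusp1, Zfp36, Nr4a1 and Klf6 were set against detection of Fos. Many of these, but not all, were detected more often in cells with a Fos UMI. With each cell thinned to 1000 UMIs, Egr1 had a UMI in 81.8% of 214 control goblet-like cells with a Fos UMI and in 55.4% of 92 without, and in the model library in 76.1% of 230 and 55.4% of 83. In T cell-like cells Fosb had a UMI in 32.8% of cells with Fos and 16.5% of cells without in control, and in 28.4% and 12.7% in model. Nr4a1 there was at 32.6% and 16.8% in control and 35.5% and 16.4% in model. The class joins clusters that differ in these genes. Over both libraries, Fos was at 922 CPM in cluster 8 and 2172 CPM in cluster 9, Fosb at 183 and 382 CPM and Nr4a1 at 155 and 625 CPM. The part of the clusters in these shares was not tested. Ier2 did not follow Fos in T cell-like cells, at 12.7% with and 13.5% without Fos in control and 11.95% and 12.1% in model. Nr4a1 in goblet-like cells was at 7.01% with and 9.78% without Fos in control and 3.48% and 8.43% in model, with overlapping intervals. Shares were also no higher with Fos for Nr4a1 in enterocyte-like cells of both libraries and for Ier2 and Dusp1 in the control crypt class. Hspa1a did not follow Fos in T cell-like cells either: its share was 6.13% with and 7.24% without Fos in control, and 4.43% and 3.88% in model.

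Over all kept cells, 27 of 27 immediate early members were measured, meaning at least 50 UMIs over both libraries. Dusp2 was at least 1.5-fold higher in the model library (601 control and 1248 model UMIs; ratio 1.66, 1.51 to 1.84), beside 2.81% of all genes. Ier3 (1389 and 848 UMIs, 2.05-fold lower, 1.88 to 2.23) and Socs3 (3111 and 2567 UMIs, 1.51-fold lower, 1.44 to 1.60) were at least 1.5-fold lower, beside 10.7% of all genes. No heat shock member passed 1.5-fold in either direction, the lowest being Hspa1b at a ratio of 0.778. The median log2 ratio was −0.04 for immediate early and −0.01 for heat shock members, beside −0.03 for all measured genes. These values carry the make-up of the libraries, for example 277 B cell-like and 2245 T cell-like cells in model against 4 and 1118 in control, so classes were compared 1 by 1. In pooled RNA, fewer cells of a class and less RNA per cell cannot be told apart.

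Macrophage or monocyte-like cells, named from markers including C1qa, Csf1r and Lyz2, had the lowest immediate early median log2 ratio of the 6 main classes. Egr1 had 1095 UMIs in 227 control cells and 572 in 209 model cells (1156 and 684 CPM; 1.69-fold lower, 1.53 to 1.87). Nfkbiz had 662 and 336 UMIs (1.74-fold lower, 1.52 to 1.99) and Dusp1 2771 and 1621 UMIs (1.51-fold lower, 1.42 to 1.61). The model library was lower for all 3, with intervals that exclude a ratio of 1. Of 25 immediate early members measured, 19 had a ratio below 1 and 8 were at least 1.5-fold lower, beside 6.77% of all genes: Egr1, Egr2, Nr4a3, Crem, Nfkbiz, Dusp1, Ier3 and Socs3. Only Dusp2 was at least 1.5-fold higher (46 and 66 UMIs; ratio 1.63, 1.10 to 2.42), beside 9.12% of all genes, and without the 3 cells with the most Dusp2 UMIs its log2 ratio was −0.30. The median log2 ratio was −0.43, beside 0.05 for all genes.

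All 6 AP-1 and ATF members were lower in these macrophages, from Fosb (ratio 0.702, 0.641 to 0.770) and Junb (0.743) to Fos (0.867, 0.821 to 0.915). Ratios above 1 were found for Nr4a1 (1.07), Nr4a2 (1.33, 0.965 to 1.85), Ier2 (1.01), Btg2 (1.05) and Rgs1 (1.08, 1.03 to 1.14) besides Dusp2. Egr3 had 39 control and 5 model UMIs and Myc 29 and 20, too few to be counted. Of the heat shock members Hspa1b was 1.71-fold lower (528 and 272 UMIs, 1.48 to 1.99) and Hspa8 higher (1027 and 1009 UMIs; ratio 1.11, 1.02 to 1.22), and the group's median was −0.15. Within cells of under 5% mitochondrial UMIs the summed immediate early level, per mega-UMI without mitochondrial genes, was 37386 in 189 control and 28726 in 155 model cells, so the order was as in the whole class. Median depth was 3862 UMIs in control and 3285 in model, and the summed CPM of 9 plasma cell markers was 6741 and 1161. That of 5 neutrophil markers was 605 and 354, with 0 of 5 ratios above 1, and that of 10 crypt stem markers 147 and 483, with 8 of 10 above 1. The part of depth and of these markers in the result was not tested.

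Other genes of the same stimulus response, a list of 40 that holds no member, had a median of −0.28 in the macrophages, with 8 of 32 measured at least 1.5-fold lower and 2 higher. Plk2 (ratio 0.401) and Cd69 (0.414) were lowest and Plk3 (1.59) and Sgk1 (1.58) highest. Other heat shock factor targets had a median of 0.36 there, with 3 of 14 higher and 0 lower, led by the mitochondrial chaperones Hspd1 (2.21) and Hspe1 (1.61). Upstream regulators, such as the ERK pathway kinases and ternary complex factors, had a median of −0.22, with 4 of 14 at least 1.5-fold lower, Elk4 (0.458) and Map2k1 (0.508) the lowest. Beside these counts, 9.12% of all genes in the macrophages were at least 1.5-fold higher and 6.77% lower.

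**Figure D4:**
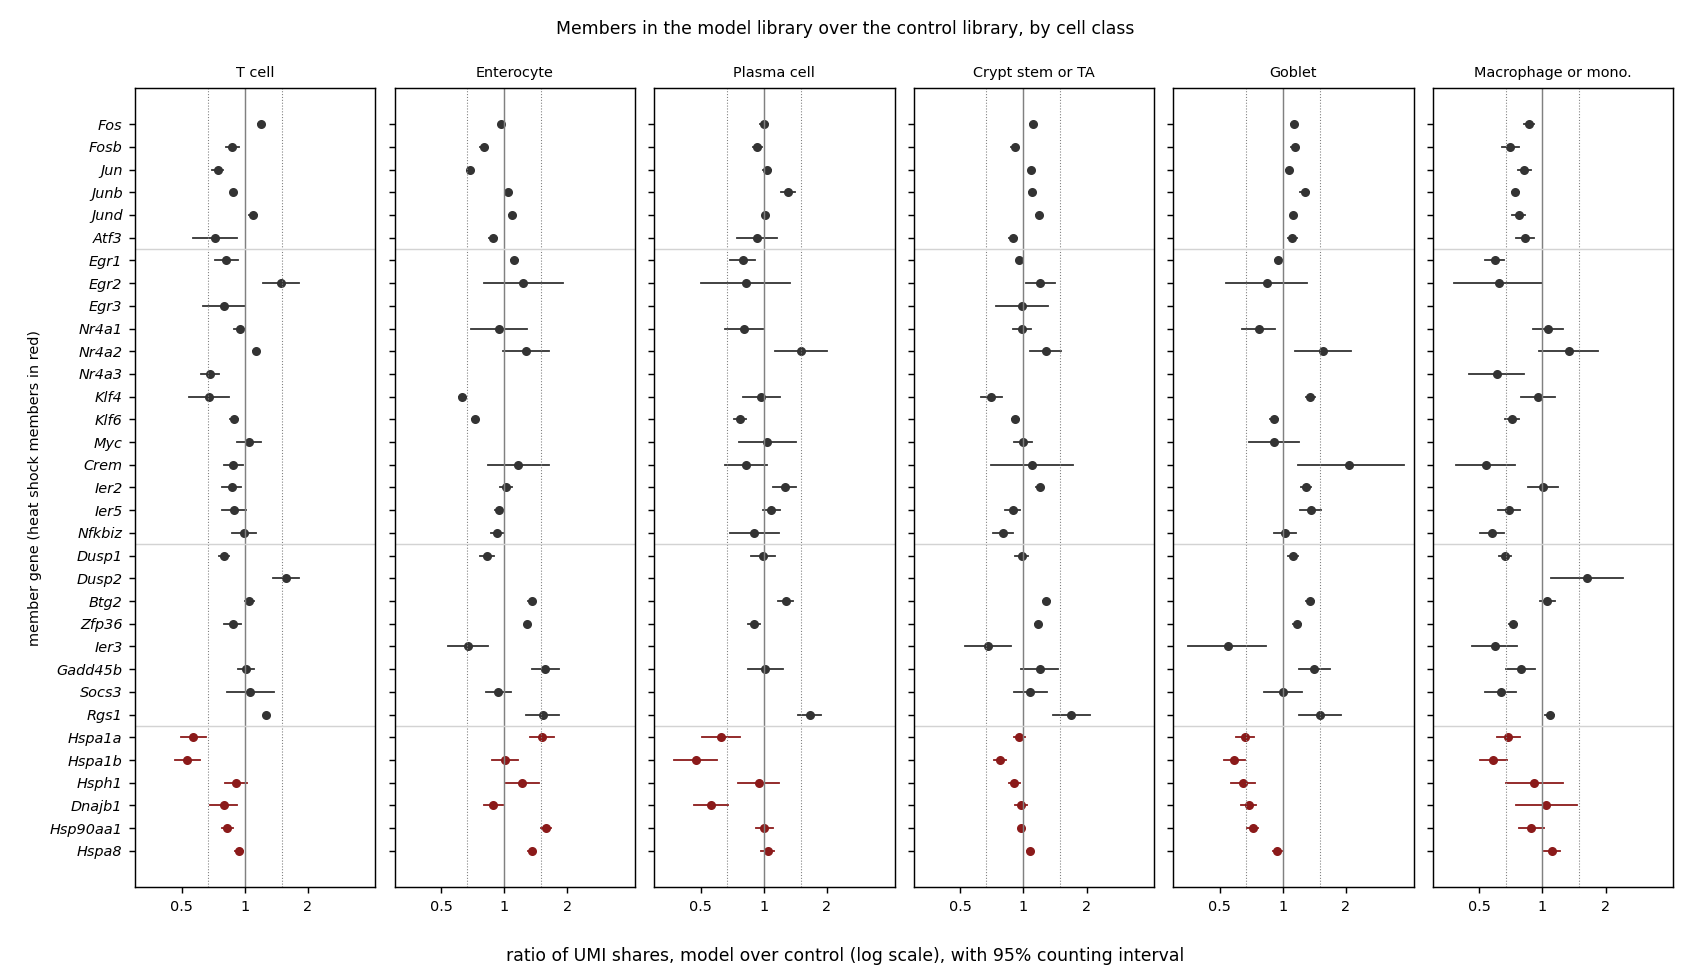
Ratio of each measured member's UMI share in the model library over the control library (horizontal, log scale; point) with its 95% counting interval (line) in the 6 main cell classes; heat shock members are red, dotted lines mark 1.5-fold, and members with under 50 UMIs are left out. In macrophage or monocyte-like cells 19 of 25 immediate early points lie left of 1, and in T cell-like cells all 6 heat shock points do.

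T cell-like cells showed small immediate early ratios and lower Hsp70. Hspa1b had 461 UMIs in 1118 control and 410 in 2245 model cells (116 and 61.6 CPM; 1.88-fold lower, 1.64 to 2.15), and Hspa1a 414 and 394 (1.76-fold lower, 1.53 to 2.02). These were the 2 of 33 members at least 1.5-fold lower, beside 3.69% of all genes. All 6 heat shock members had ratios below 1, with a median log2 ratio of −0.31 beside −0.04 for all genes. The other 4 were closer to 1, from Dnajb1 (0.794) to Hspa8 (0.940). Hspa1b was lower in T cell-like clusters 8 (ratio 0.738), 9 (0.400) and 22 (0.328) and not in cluster 10 (1.03, 0.706 to 1.495).

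Of 26 immediate early members measured in T cell-like cells, 16 had ratios below 1 and the median was −0.17. Nr4a3 (759 and 867 UMIs; 1.47-fold lower, 1.33 to 1.62) and Jun (1701 and 2108 UMIs; 1.35-fold lower, 1.27 to 1.44) were lowest by their bounds, and both had ratios below 1 in clusters 8, 9, 10 and 22. Higher were Fos (4766 and 9520 UMIs; ratio 1.19, 1.15 to 1.24), Rgs1 (15673 and 32963; 1.26, 1.23 to 1.28) and Egr2 (147 and 366; 1.49, 1.23 to 1.82). Dusp2 alone was at least 1.5-fold higher (288 and 757; 1.57, 1.37 to 1.81), beside 1.97% of all genes. Cluster 22, with 90 control and 265 model cells, is led by Dusp2 among other genes, so the class ratio also carries its share. In cluster 8, the largest T cell-like cluster, Dusp2 had a ratio of 0.838 (0.593 to 1.19), in cluster 9 of 1.32 (1.003 to 1.76) and in cluster 22 itself of 1.64 (1.35 to 2.01). Nr4a2 leads cluster 9 in the same way (482 and 820 cells). Egr2 had a ratio of 2.01 (1.54 to 2.65) in cluster 9. In cluster 8 Egr2 was at 0.941 (0.474 to 1.95), on only 14 control and 26 model UMIs.

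Plasma cell-like cells resembled T cell-like cells in their Hsp70 genes. Hspa1b summed to 198 UMIs in control and 124 in model (2.12-fold lower, 1.68 to 2.67). For its partner Dnajb1 the library sums were 269 and 199 (1.79-fold lower, 1.49 to 2.16) and for Hspa1a 207 and 171 (1.60-fold lower, 1.30 to 1.98). Those 3 were at least 1.5-fold lower, beside 4.6% of all genes, while Hsp90aa1 (1.01) and Hspa8 (1.04) lay near 1. The immediate early median was −0.01, with 11 of 22 measured members above and 11 below 1. Rgs1 was at least 1.5-fold higher (366 and 801 UMIs; ratio 1.65, 1.46 to 1.88), beside 4.65% of all genes. Junb (1.30, 1.21 to 1.41), Btg2 (1.27, 1.17 to 1.38) and Nr4a2 (74 and 147 UMIs, just under 1.5-fold, 1.13 to 2.01) were also higher, and Klf6 lower (0.771, 0.723 to 0.823). The class joins cluster 7 (464 control and 592 model cells) and cluster 27 (36 and 71 cells). In cluster 7 alone Rgs1 was at 1.18 (1.01 to 1.38), Nr4a2 at 0.896 (0.545 to 1.48) and Hsp90aa1 at 0.788 (0.695 to 0.893). Hspa1b (0.569), Dnajb1 (0.523), Hspa1a (0.728), Junb (1.45), Btg2 (1.30) and Klf6 (0.785) kept their direction there.

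Goblet-like cells, the mucus-secreting class, gave opposite values for the 2 groups. The immediate early median was 0.17, with 18 of 24 ratios above 1: Btg2 (4016 and 4824 UMIs; ratio 1.35, 1.29 to 1.41), Klf4 (3045 and 3659; 1.35, 1.29 to 1.42), Ier2 (2808 and 3226; 1.29) and Junb (3741 and 4226; 1.27). Nr4a2, Crem and Rgs1 were at least 1.5-fold higher, beside 5.69% of all genes, but on 77 and 106, 20 and 37, and 136 and 182 UMIs. Ier3 was at least 1.5-fold lower (72 and 35 UMIs). Among heat shock members Hspa1b (905 and 473 UMIs; 1.70-fold lower, 1.52 to 1.91), Hsph1 (635 and 366; 1.55-fold lower, 1.36 to 1.76) and Hspa1a (1096 and 643; 1.52-fold lower, 1.38 to 1.68) were at least 1.5-fold lower as well, so 4 of 33 members were, beside 5.82% of all genes. All 6 heat shock ratios were below 1, with a median of −0.57.

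The goblet heat shock values depended on how cells were weighted. The 3 control cells with the most Hspa1a UMIs held 412 of the 1096. Without the 3 highest cells of each member, an alternative added after the data were seen, the heat shock median was −0.40 against −0.57. With each cell given equal weight the heat shock median was −0.02, and thinned to 1000 UMIs it was −0.02 as well. Cells with an Hspa1a UMI after thinning made up 8.497% of the control class (5.63 to 12.2) and 8.95% of the model class (6.03 to 12.7). The immediate early median ranged from 0.11 to 0.27 over all alternatives run. Summed over 10 enterocyte markers, goblet-like cells had 3758 CPM in control and 10404 in model, and this difference's part in the result was not tested.

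Enterocyte-like cells gave other ratios as 1 class than within its clusters. Taken as 1 class, Klf4 summed to 6337 UMIs in control and 4679 in model (1.58-fold lower, 1.53 to 1.65), Jun 14336 and 11549 (1.45-fold lower, 1.42 to 1.49), Klf6 8931 and 7579 (1.38-fold lower) and Fosb 6540 and 6087 (1.26-fold lower, 1.21 to 1.30). Klf4 alone of the 33 members was at least 1.5-fold lower, beside 9.35% of all genes. Gadd45b (274 and 502 UMIs; ratio 1.57, 1.35 to 1.82), Rgs1 (195 and 347; 1.52), Hspa1a (359 and 636; 1.52, 1.33 to 1.73) and Hsp90aa1 (1674 and 3095; 1.58, 1.49 to 1.68) were at least 1.5-fold higher, 4 of 33, beside 17.4% of all genes. Btg2 was higher too (4645 and 7340; 1.35, 1.30 to 1.40). The median was −0.05 for 23 immediate early and 0.36 for 6 heat shock members, beside 0.11 for all genes.

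Jun, Klf4 and Fosb differed among the 4 clusters of the class, each in the same order in both libraries. Jun was at 749 and 729 CPM (control and model) in cluster 2, led by Fabp1 and Reg1, at 1062 and 1078 CPM in cluster 3, led by Slc5a12 and Cyp3a11, at 1466 and 1699 CPM in cluster 11, led by Plb1 and Slc34a2, and at 2368 and 2265 CPM in cluster 19, led by Clca4a and Ly6m with the villus tip genes Ada and Nt5e. Klf4 ran likewise from 224 and 217 CPM in cluster 2 to 1177 and 1394 CPM in cluster 19, and Fosb from 247 and 324 to 1035 and 1162 CPM. Hsp90aa1 was highest in cluster 2 (243 and 279 CPM), while clusters 11 and 19 swapped order, at 126 and 77.3 CPM in control and 109 and 115 CPM in model. Junb also had a different order in each library. Cluster 2 had 192 control and 623 model cells, cluster 3 had 381 and 404, cluster 11 had 870 and 93, and cluster 19 had 380 and 123. The clusters with more Jun and Klf4 thus held more of the control cells.

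Within clusters some ratios of the class turned around or came closer to 1, and others were larger. Fosb, 1.26-fold lower over the class, had ratios of 1.31 (1.21 to 1.42), 1.43, 1.48 and 1.12 (1.03 to 1.23) in clusters 2, 3, 11 and 19. Klf4 had 0.971 (0.890 to 1.06), 1.26, 1.42 and 1.18 (1.09 to 1.28), and Jun 0.973, 1.01, 1.16 and 0.956 (0.899 to 1.02). Btg2, at 1.35 over the class, was above 1 in all 4, from 1.37 to 1.97. Rgs1, at 1.52 over the class, was at 1.499 (1.08 to 2.12), 3.46 (2.15 to 5.79), 2.63 (1.58 to 4.19) and 2.83 (1.77 to 4.53), on 23 to 89 control and 23 to 207 model UMIs a cluster. With clusters weighted alike in both libraries, an alternative added after the data were seen, the immediate early median was 0.14 and the heat shock median 0.08, the log2 ratio of Klf4 was 0.34 and of Gadd45b −0.24. Hspa1a kept ratios above 1 in the 4 clusters (1.23, 1.32, 1.62 and 1.70), although only the first interval (1.01 to 1.498) excludes 1. Hsp90aa1 was at 1.15 (1.06 to 1.25), 1.16, 0.868 and 1.49 (1.10 to 2.01). At a mitochondrial limit of 10% the heat shock median was 0.06; the class's median mitochondrial share was 17.9% in control and 15.6% in model.

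**Figure D5:**
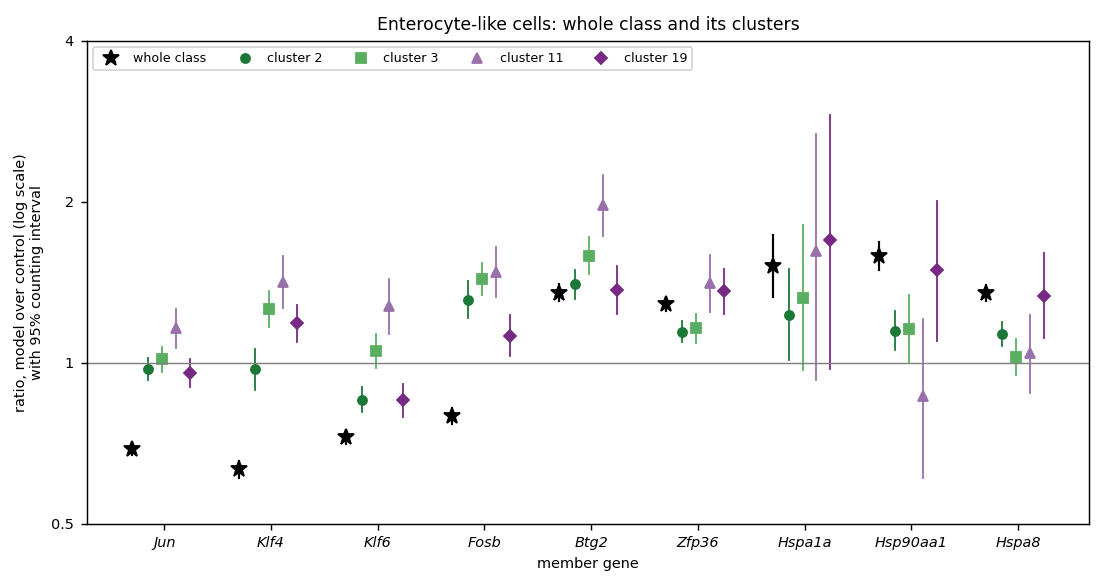
Ratio of model over control (vertical, log scale) with 95% counting intervals for 9 members in the whole enterocyte-like class (black stars) and in its clusters 2, 3, 11 and 19 (coloured symbols). For Jun, Klf4 and Fosb the star lies below every cluster's symbol, at 0.689, 0.631 and 0.796.

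Other heat shock factor targets, none of them members, had a median of 0.66 in the enterocyte-like class, with 8 of 15 at least 1.5-fold higher and 0 lower. Hspe1 (2.53) and Hspd1 (2.30) were highest and Dnajb4 (0.949) lowest. Other stimulus-induced genes had a median of −0.21, with 4 of 36 higher and 9 lower, from Cebpb (1.95) to Plk2 (0.336). Upstream regulators had a median of −0.19, with 0 of 17 higher and 3 lower. These too are values of the class as a whole, where 17.4% of all genes were at least 1.5-fold higher and 9.35% lower.

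Crypt stem or transit-amplifying-like cells, with the highest summed heat shock level among named classes, barely differed in these members. The median was −0.05. The ratios ran from Hspa1b (2156 and 1630 UMIs, ratio 0.772, 0.724 to 0.824) to Hspa8 (13286 and 13923 UMIs, ratio 1.07, 1.05 to 1.10). The immediate early median was 0.11, with 13 of 25 members above 1. Rgs1 was the 1 member of 33 at least 1.5-fold higher (156 and 259 UMIs; ratio 1.70, 1.39 to 2.08), beside 1.69% of all genes, and 0 were lower, beside 2.86%. Btg2 (3874 and 4886 UMIs; 1.29, 1.24 to 1.34), Jund (9011 and 10473; 1.19) and Ier2 (4004 and 4683; 1.195) were higher. Klf4 (726 and 500; 1.42-fold lower, 1.27 to 1.60), Ier3 (160 and 106; 1.48-fold lower) and Nfkbiz (768 and 600; 1.25-fold lower) were lower.

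Of the unnamed clusters with at least 100 cells in each library, 12 and 14 were compared in full, a choice made with the data seen. Clusters 4, 5 and 6 were not, and their median depth was 784, 1284 and 1002 UMIs, against 17750 and 23517 in clusters 12 and 14. Their immediate early medians were −0.29, −0.14 and 0.34 and their heat shock medians −0.31, −0.41 and 0.18. In cluster 6 (196 control and 184 model cells) Fos had 310 and 722 UMIs (ratio 1.69, 1.48 to 1.94), Ier2 74 and 190 (1.86, 1.42 to 2.47), Zfp36 122 and 303 (1.80, 1.45 to 2.24), Atf3 51 and 128 (1.82, 1.31 to 2.57) and Dnajb1 24 and 76 (2.29, 1.43 to 3.80). All 5 were higher in the model library, with intervals that exclude 1. In this cluster 7 of 25 measured members were at least 1.5-fold higher, beside 613 of 3049 genes. Nfkbiz was at least 1.5-fold lower (0.594, 0.384 to 0.917), beside 365 of 3049 genes, and Rgs1 was lower too (0.797, 0.720 to 0.883). Cluster 12, led by Gsdmc4 and Car4, had Klf4 (497 and 503 UMIs; 1.74-fold lower, 1.54 to 1.98) and Ier3 (83 and 93; 1.57-fold lower, 1.16 to 2.14) at least 1.5-fold lower, 2 of 33, beside 4.65% of all genes, and 0 higher, beside 2.51%. Its medians were −0.11 for immediate early and −0.21 for heat shock members. Cluster 14, the cycling cells, had medians of 0.21 and 0.23. Fos (5483 and 12322 UMIs; ratio 1.38, 1.34 to 1.43), Btg2 (1.40, 1.33 to 1.48) and Hspa1a (1874 and 4537; 1.49, 1.41 to 1.57) were higher there, and the other 5 heat shock members had ratios above 1 as well. Rgs1 (31 and 155; 3.07, 2.08 to 4.67) was at least 1.5-fold higher, beside 2.67% of all genes, and Crem (28 and 30; ratio 0.658, 0.380 to 1.14) at least 1.5-fold lower, beside 3.36%.

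Seen across these 8 classes and clusters, few members had ratios on the same side of 1 throughout. Btg2 and Nr4a2 had ratios above 1 in 8 of 8, Btg2 from 1.05 to 1.40 and Nr4a2 from 1.12 to 1.55. Within classes Nr4a2 was below 1 in enterocyte-like cluster 2 (0.779, 0.536 to 1.15) and plasma cell-like cluster 7 (0.896). It was above 1 in enterocyte-like cluster 3 (2.98) and T cell-like clusters 8, 9 and 10. Outside the 8, Btg2 was below 1 in fibroblast-like cells (0.793) and cluster 4 (0.773, 0.490 to 1.165). It was above 1 in dendritic cell-like (1.30), endothelial-like (1.45), enteroendocrine-like (1.37) and tuft-like cells (1.38). Outside these 8, Nr4a2 was below 1 in fibroblast-like (64 and 5 UMIs; 0.196, 0.0614 to 0.481), dendritic cell-like (0.722, 0.625 to 0.834) and smooth muscle or pericyte-like cells (0.635, 0.510 to 0.788). Jund, Ier2, Gadd45b and Rgs1 were above 1 in 7 of 8, and Fosb, Nr4a1, Klf4, Klf6 and Nfkbiz below 1 in 7 of 8. For Fosb and Klf4 this counts the enterocyte-like class as a whole, where Fosb was above 1 in each of the 4 clusters and Klf4 in 3 of 4. Gadd45b there was above 1 in the class and had a log2 ratio of −0.24 with clusters weighted alike. Ier3 was below 1 in all 6 where it was measured and at least 1.5-fold lower in 3. Hspa1b was at least 1.5-fold lower in 4 of 8, and Hspa1a in 3 of 8 and at least 1.5-fold higher in 1. Fos, Fosb, Jun, Junb, Jund, Atf3, Nr4a1, Klf6, Ier2, Ier5, Btg2, Zfp36 and Hspa8 passed 1.5-fold in 0 of the 8. However, Fos, Atf3, Ier2 and Zfp36 did in the shallow cluster 6. Egr3 and Myc also passed 1.5-fold in 0, but they were measured in only 2 and 6 of the 8.

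Rgs1 was at least 1.5-fold higher in 5 of 8, among them the plasma cell-like class, whose cluster 7 alone was at 1.18. In epithelium, however, Rgs1 was at a small part of its T cell level: 17.8 CPM (control) and 27.03 CPM (model) in the enterocyte-like class, and 17.9 and 30.4 CPM in the crypt class. The T cell gene Cd3g was also higher in the model library, at 6.47 and 9.74 CPM in the former and 10.1 and 18.7 CPM in the latter. Summed over 11 T cell markers the level was 36.2 and 40.9 CPM in enterocyte-like cells, with 0 of 11 at 0 in either library, and 33.9 and 56.3 CPM in crypt stem or transit-amplifying-like cells, with 0 and 1 of 11 at 0. Their part in the Rgs1 values was not tested. In the crypt class the Rgs1 log2 ratio was 0.24 without the 8% of cells with the highest doublet scores, against 0.76 with them.

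Classes with 50 to 100 cells in a library gave wider values. Dendritic cell-like cells had 17 Hspa1a UMIs in 87 control and 313 in 100 model cells (ratio 13.9, 8.56 to 24.2), with 67 of the 313 in the 3 highest cells. After thinning, an Hspa1a UMI was found in 7.25% of the control class (2.40 to 16.1) and 30.6% of the model class (21.1 to 41.5). All 6 heat shock ratios were above 1 there, with Hspa1b at 2.43 (1.71 to 3.51) and Hspa8 at 1.68 (1.51 to 1.88), and the median was 0.87; the immediate early median was 0.08. That median covers both directions: Dusp2 (60 and 27 UMIs; 0.341, 0.208 to 0.545), Nr4a3 (294 and 162; 0.417, 0.342 to 0.507), Crem (77 and 46; 0.452, 0.307 to 0.660) and Nfkbiz (98 and 77; 0.595, 0.435 to 0.810) were lower, and Jun (292 and 569; 1.48, 1.28 to 1.70) and Atf3 (201 and 376; 1.42, 1.19 to 1.69) higher. Median depth was 4042 UMIs in control and 6024 in model, and the median mitochondrial share 7.13% and 2.50%; their part was not tested.

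Fibroblast-like cells (119 control and 58 model cells) had 19 of 21 immediate early ratios below 1, with a median of −0.51 beside −0.03 for all genes. Egr1 had 3022 and 633 UMIs (4312 and 2261 CPM; ratio 0.525, 0.481 to 0.572), Jun 2303 and 577 (0.627, 0.572 to 0.688) and Fos 3217 and 902 (0.702, 0.651 to 0.756). Their heat shock median was −0.64. Tuft-like cells (77 and 60 cells) went the other way, with 14 of 16 immediate early ratios above 1 and a median of 0.49: Fos had 282 and 467 UMIs (1.69, 1.46 to 1.97), Egr1 235 and 405 (1.76, 1.498 to 2.08) and Zfp36 209 and 383 (1.88, 1.58 to 2.23). Endothelial-like and enteroendocrine-like cells had immediate early medians of −0.0048 and 0.02, and heat shock medians of −0.31 and −0.28. The interval of a sum in so few cells covers counting error and not the differences among cells or animals.

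The relation of the members to the mitochondrial share differed by class. In T cell-like cells the summed immediate early level per mega-UMI without mitochondrial genes was 15120 (control) and 15701 (model) under 5% mitochondrial UMIs and 15321 and 14641 from 15% to 25%. In enterocyte-like cells it was 7702 and 7927 from 5% to 10% and 11253 and 10926 from 15% to 25%, while the heat shock level went from 1026 and 1176 to 818 and 982. The clusters of this class also differed in median mitochondrial share, at 9.30% in cluster 2 and 19.6%, 19.0% and 18.6% in clusters 3, 11 and 19. The part of the clusters in the values by mitochondrial share was not tested.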

How the data were processed

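The deposited UMI count matrices, 1 per library, are raw counts per gene and barcode made by the authors. Per the file headers they came from Cell Ranger 7.0.1, while the submitters' processing notes name version 4.0 and build GRCm39. Barcodes needed 500 UMIs, 200 genes and a mitochondrial share no higher than 25%, leaving 7329 of 10259 control and 7913 of 11468 model barcodes. Scrublet called 0 doublets, so none were removed. Cells were clustered together with scanpy 1.11.5 without the members and named from marker lists. A cluster sharing at least 3 leading genes with a larger cluster of another class stayed unnamed, a rule added after the data were seen.

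Counts were summed per class and library. Ratios of UMI shares have exact binomial intervals, levels exact Poisson intervals and shares of cells Clopper-Pearson intervals (scipy 1.17.1), all at 95% and for counting error only. A gene was measured with at least 50 UMIs over both libraries and called at 1.5-fold. No test was run, since each group is 1 library. Members given in full per class were up to 4 higher and 4 lower by the interval bound nearest to 1, and those past 1.5-fold in at least 3 classes; other called members are named because they were counted, after their values were seen. The ratio code was tested on simulated data. The members and lists were chosen with earlier results of these data known.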

Additional observations from a re-analysis of the deposited data

Results flagged for a closer look

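Barcodes left out for more than 25% mitochondrial UMIs entered no value of the report, only the alternative with no mitochondrial limit. Among them Dusp2 had 8 UMIs in control and 59 in model, a ratio of 5.633 (2.68 to 13.7) per UMI without mitochondrial genes. Rgs1 had 514 and 1084 UMIs there, a ratio of 1.611 (1.45 to 1.79). Both are singled out as members at least 1.5-fold higher in the model library in data outside the main measurement, on at least 50 UMIs and with an interval that excludes 1. Nfkbiz (1.45, 1.33 to 1.58), Btg2 (1.32, 1.26 to 1.39), Klf4, Junb, Zfp36 and Atf3 also had intervals above 1 but were under 1.5-fold. Other members had intervals below 1, among them Egr1 (0.812, 0.770 to 0.856) and Hsph1 (0.626, 0.527 to 0.744). T cell-like cells, where Rgs1 was highest, and B cell-like cells, where Dusp2 was highest, were also more numerous in the model library among kept cells; their part in these values was not tested.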

How the results depend on the processing

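Of the alternatives run on medians and counts, 222 values stayed within the spread allowed and 32 moved. Of those on single members, 649 stayed, 152 moved and 7 changed sign. A change of sign was counted only where the main ratio was at least 1.5-fold from 1. Smaller ratios and medians that changed direction are among those that stayed or moved. The immediate early median moved to 0.14 in enterocyte-like cells with clusters weighted alike, to 0.11 (without the highest doublet scores) and 0.27 (thinned cells) in goblet-like cells, to −0.54 in macrophage or monocyte-like cells with each library clustered alone, and over all kept cells to 0.06 (thinned) and 0.04 (per-cell CPM). The heat shock median moved in enterocyte-like cells to 0.59 (cells named by own marker score), 0.06 (mitochondrial limit of 10%), 0.55 (thinned) and 0.08 (clusters weighted alike). In crypt stem or transit-amplifying-like cells it was 0.08 (members kept among variable genes), 0.09 (resolution 0.5) and 0.07 (own marker score). In goblet-like cells it was −0.42 (resolution 0.5), −0.06 (each library alone), −0.31 (own marker score), −0.41 (no mitochondrial limit), −0.02 (thinned), −0.02 (per-cell CPM) and −0.40 (without the 3 highest cells of each member). Over all kept cells it was −0.11 (limit of 10%) and −0.10 (thinned). Members at least 1.5-fold higher over 6 classes numbered 11, against 7 by own marker score, 4 thinned, 7 by per-cell CPM and 17 with no filter. Over all kept cells 1 was higher, against 0 (limit of 10%), 6 (thinned), 2 (centred) and 6 (per-cell CPM). There 2 were lower, against 1 (no mitochondrial limit) and 1 (centred). The share of all genes called was not computed under these alternatives, so these counts are no result about the members. Log2 ratios of members past 1.5-fold changed sign for Gadd45b (−0.24) and Klf4 (0.34) in enterocyte-like cells with clusters weighted alike. In goblet-like cells they did for Hspa1b when thinned (0.10) and for Hspa1a with each library alone (0.18) and per-cell CPM (0.10). In macrophage or monocyte-like cells Dusp2 did so at resolution 0.5 (−0.24) and without the 3 highest cells (−0.30). The cause was not tested. Weighting clusters alike and leaving out the 3 highest cells were chosen after seeing the data. The T cell-like class did not form at resolution 0.5 or with each library alone, nor the plasma cell-like class in the latter, so counts over 6 classes have no value there. No paired analysis was possible because each group holds 1 library. With 1 library per group, differences between animals and between preparations cannot be told apart from the labelled groups.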
